A study of Mus musculus with 32 samples.

Results

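The eyes of sighted C3H mice were compared with the eyes of C3H mice whose retina degenerates, on 12 of the 32 arrays of the series, namely all arrays titled as sighted eye. The sighted RNA came from males of a line called C3H seh, 6 animals per the design text. The control was C3H.pde6b-, a C3H strain named for the defective gene of the rod phosphodiesterase beta subunit, and its RNA was 1 pool from the eyes of 6 males. No treatment is named, the age of the mice is not given in the sources used here, and the labels do not expand the name seh. Each array was a spotted cDNA array on which 1 sighted sample and the control pool were labelled with Cy5 and Cy3 and competed for 20794 probes. Both groups share the C3H background and the sex, so the difference that the labels name is the state of the Pde6b gene and of the retina that depends on it. The Pde6b gene itself has no named probe here and could not be read as a check of the labels. Because every array used the same control pool, the tests hold no spread between control animals.

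In the retina, light is caught in the outer segment, a stack of membrane discs that rods renew throughout life. Photons activate rhodopsin, transducin and a phosphodiesterase that breaks down cyclic GMP, which closes a cation channel, and calcium sensors, arrestin and a GTPase activating complex then end the response. A rod without a working phosphodiesterase beta subunit accumulates cyclic GMP and dies in the first weeks of life, cones follow slowly, and Mueller glia and microglia react. Everything a disc needs is made in the inner segment and carried through a thin connecting cilium, while the other end of the cell releases glutamate at a ribbon synapse.

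All values below are log2 ratios of sighted over control eye, so a value of 1 is a doubling, given as the mean ± SD of 6 replicates unless another n is stated. For each replicate 2 arrays of opposite dye, numbered 1 after the other, were averaged. A gene is said to have risen or fallen when the mean differed from 0 in limma, a moderated linear model over all genes, at a Benjamini-Hochberg adjusted p under 0.05. The ratio of a 2-colour array holds no expression level, so genes are compared by their difference and not by their abundance, and the tissue could be checked only through which genes differed. The direction was read from rod genes, which turned sign with the dye of the sighted RNA. It is called likely, and the sign of the rod genes is no independent evidence for it. The eye is a whole organ, and fewer cells of a type cannot be told apart from less RNA per cell. Which arrays hold the same animal is not labelled, and the p-values cover only how these replicates vary, some of which may be technical.

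Of 15874 genes tested, 8561 of them with a symbol, 2520 rose in sighted eyes, which is 15.9%, and 1739 fell, which is 11%. Together 26.8% of all genes were called, and the counts of the groups below are to be read against these shares. Most differences were small, with 1607 of the rises at most 0.5 and 1058 of the falls no deeper than -0.5. At the far end the rises reached further than the falls. Above 2 there were 75 genes, above 3 there were 23 and above 4 there were 11, whereas 2 genes lay below -2 and 0 below -3. The median over all genes was 0.027 and the median SD 0.198. The replicates correlated over 14873 genes at r between 0.562 and 0.749, and their medians lay between -0.103 and 0.141. Genes are not independent replicates, and these correlations only describe the arrays.

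The arrays were not centred, and this moved the level of all genes with the dye. The mean of arrays with sighted RNA in Cy5 lay above the turned mean of those with Cy3 for 15350 of 15874 genes. Taken alone, the Cy5 arrays called 6072 genes higher and 508 lower, and the Cy3 arrays 553 higher and 3394 lower. With each array centred on its median first, the same arrays called 2176 higher and 1834 lower in Cy5 and 1951 higher and 2028 lower in Cy3. In the replicates used below both dyes enter equally. Large differences held in both orientations. Guca1b, Sag, Reep6 and Bbs5 lay far above 0 on both axes of the plot of dye orientations, and Fgf7, with -2.14 in Cy5 and -3.19 in Cy3, lay far below. Smaller differences did not always hold. Among the named genes, Des with -0.07 in Cy5 and -1.65 in Cy3 and Pax6 with 0.32 and -1.01 had the widest gap between dyes. Pax6, and Tulp3 with 0.25 and -0.85, had opposite signs in Cy5 and Cy3, although both were called as falls. Elovl4 with 3.30 and 2.13, Fscn2 with 3.33 and 2.19 and Agpat3 with 2.58 and 1.46 also had wide gaps.

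**Figure D1:**
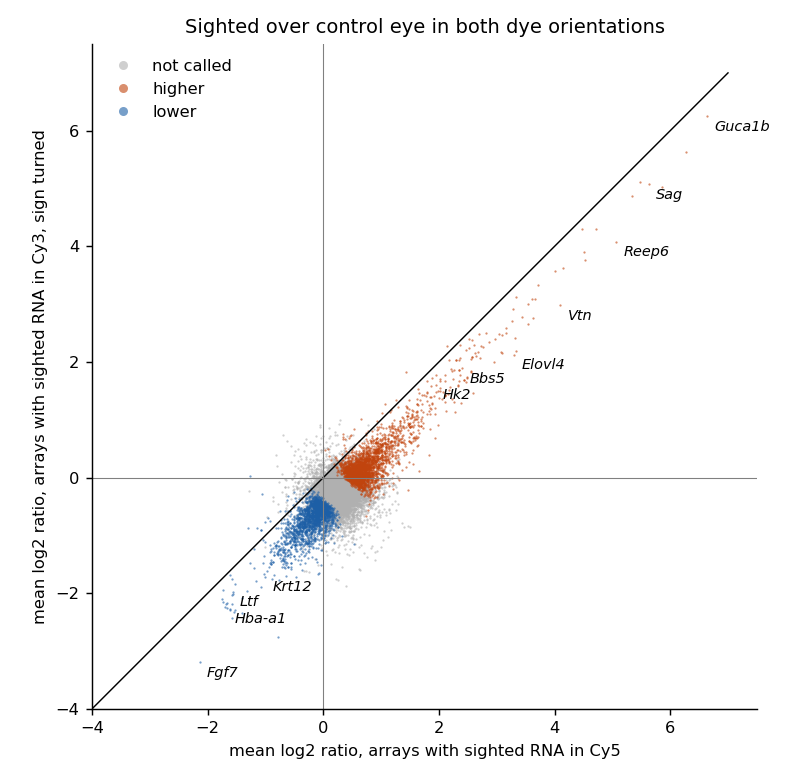
Mean log2 ratio of sighted over control eye for each gene on the 6 arrays with sighted RNA in Cy5 (horizontal axis) and on the 6 with sighted RNA in Cy3 after turning the sign (vertical axis), coloured by the call over both dyes. The cloud lies below the line of equality, 15350 of 15874 genes having the higher mean in Cy5, while genes such as Guca1b and Fgf7 keep their side of 0 in both orientations.

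The genes that rose most were examined first at their promoters, because many rod genes are known to be driven by the homeodomain factor Crx and the Maf family factor Nrl. The letters TAATCC, or GGATTA on the other strand, are the core of the motif bound by Crx and its relatives. Among called genes above 2 with a RefSeq promoter, 7 of 38 held it in the 250 bases before the start, or 18.4%. The share was 7 of 91 (7.69%) for rises between 1 and 2, 63 of 1097 (5.74%) for rises below 1 and 40 of 895 (4.47%) for genes that fell. Over all genes tested with a promoter it was 352 of 6932 (5.08%), and over all 27025 promoters listed 6.38%. The letters TGCTGAC or GTCAGCA, a core of the Maf motif, were in 1 of 38 promoters (2.63%) above 2 and in 3.39% of those tested. These shares describe letters in a window, with no test, and a match is not a site. The 7 genes above 2 with a match were Sag, Nxnl2, Cngb1, Pcare, Rpgrip1, Marchf1 and Fam149a. The promoters of 5 of them, which all belong to the groups described below, are shown 5′ to 3′ in the direction of the gene, from 250 bases before the start up to it, as given by RefSeq for GRCm38.p6, with the matching letters in capitals. They lie at chr1:87803430-87803679 on the plus strand for Sag, chr13:51170775-51171024 on the plus strand for Nxnl2, chr8:95306586-95306835 on the minus strand for Cngb1, chr17:71752906-71753155 on the minus strand for Pcare and chr14:52110653-52110902 on the plus strand for Rpgrip1.
Sag: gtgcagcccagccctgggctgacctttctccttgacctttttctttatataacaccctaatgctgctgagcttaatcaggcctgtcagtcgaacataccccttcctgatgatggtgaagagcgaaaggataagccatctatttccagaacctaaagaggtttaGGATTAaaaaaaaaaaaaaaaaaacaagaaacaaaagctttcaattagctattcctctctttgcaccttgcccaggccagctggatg
Nxnl2: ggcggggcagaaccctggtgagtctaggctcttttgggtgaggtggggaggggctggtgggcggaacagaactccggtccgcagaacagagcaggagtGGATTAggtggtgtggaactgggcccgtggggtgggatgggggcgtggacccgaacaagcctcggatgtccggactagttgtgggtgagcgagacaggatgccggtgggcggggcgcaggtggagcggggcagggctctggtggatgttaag
Cngb1: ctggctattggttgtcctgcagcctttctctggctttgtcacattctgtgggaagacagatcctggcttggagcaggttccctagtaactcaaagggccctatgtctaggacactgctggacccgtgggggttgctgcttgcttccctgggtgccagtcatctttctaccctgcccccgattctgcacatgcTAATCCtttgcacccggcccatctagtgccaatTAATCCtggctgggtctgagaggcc
Pcare: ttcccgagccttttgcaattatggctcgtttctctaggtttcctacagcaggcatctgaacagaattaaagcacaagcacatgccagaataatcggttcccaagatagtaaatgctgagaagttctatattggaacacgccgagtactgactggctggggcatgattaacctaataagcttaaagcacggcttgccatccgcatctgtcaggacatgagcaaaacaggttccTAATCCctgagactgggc
Rpgrip1: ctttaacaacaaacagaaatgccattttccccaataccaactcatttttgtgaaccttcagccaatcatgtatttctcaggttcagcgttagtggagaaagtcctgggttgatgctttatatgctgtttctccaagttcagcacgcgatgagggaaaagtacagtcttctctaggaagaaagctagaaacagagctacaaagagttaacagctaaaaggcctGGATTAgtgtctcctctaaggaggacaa
The match began 87 bases before the start in Sag, 152 in Nxnl2, 18 in Pcare and 28 in Rpgrip1. Cngb1 held 2 matches, at 58 and 25 bases before the start.

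The 6 phototransduction genes measured rose in sighted eyes by very different amounts, Rgs9 through 1 of its 2 probes. They are 6 of 21 genes on this list, and the opsin, the transducin alpha and gamma subunits and all phosphodiesterase subunits were not measured. Guca1b, which encodes a calcium sensor that switches guanylate cyclase on when light lowers calcium, had the largest difference of all named genes, 6.45 ± 0.20. Its lowest replicate was 6.24, the median 6.43 and the highest 6.70, an 87.2-fold difference with an adjusted p of 2.36e-09. Sag, the arrestin that caps activated rhodopsin, ranged from 5.15 over a median of 5.38 to 5.53. Cngb1, the beta subunit of the rod channel, ranged from 4.62 over 5.12 to 5.48, a 34.4-fold difference. The shut-off complex of transducin differed less. Gnb5, a subunit of that complex, rose by 1.80 ± 0.17 with replicates from 1.60 to 2.04. Rgs9, its catalytic subunit, had 1.69 ± 0.09, but its probes split into 3.34 and 0.05, so that its mean describes neither. Gnb1, the transducin beta subunit that many other cells also use, rose by 0.66 ± 0.19, from 0.41 to 0.94.

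Genes listed under outer segment structure rose as a whole, 8 of 8 measured of a list of 16. The list is broad and also holds genes with other roles, such as Reep6, Rd3 and Mak. In 4 genes of the disc rim and of the evaginating disc the rise was between 1.97 and 4.20. Pcare, which organises actin where new discs form, had 4.20 ± 0.35 with replicates from 3.57 over 4.23 to 4.53. Rom1, a tetraspanin of the disc rim, ranged from 3.91 over 4.16 to 4.34, and Cdhr1, a cadherin at the base of the outer segment, from 3.73 over 3.90 to 4.08. Prom1, which shapes the edge of new discs and is also made by epithelia, rose by 1.97 ± 0.16. The lowest replicate of these 4 genes was 1.68, in Prom1. Reep6, which shapes endoplasmic reticulum in rods, rose by 4.57 ± 0.19. Fscn2, an actin bundling fascin, rose by 2.74 ± 0.54 (n = 5), and Rd3, a partner of guanylate cyclase, by 2.39 ± 0.18. Mak, a kinase of the axoneme, had the widest spread of this group, 1.63 ± 0.66, with replicates 2 and 3 at 0.98 and 0.90 and replicate 6 at 2.47. Its adjusted p was 0.000979.

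**Figure D2:**
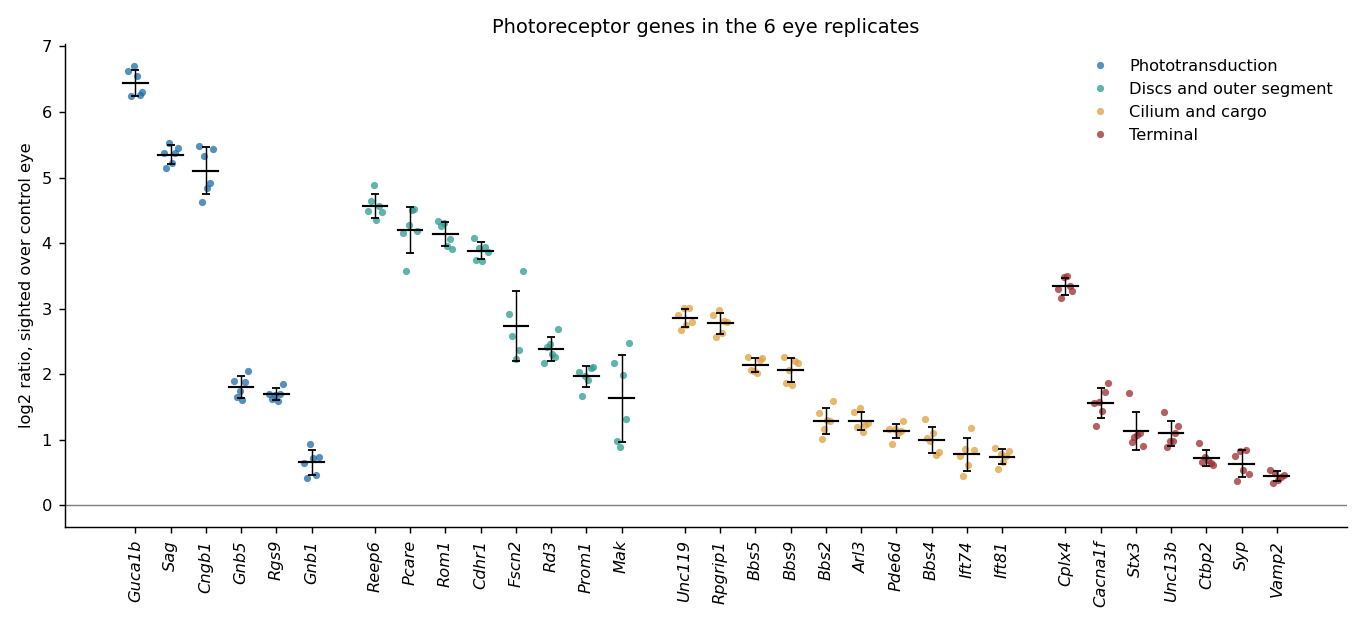
Log2 ratio of sighted over control eye for genes of phototransduction, discs and outer segment, cilium and cargo, and the synaptic terminal. Points are the 6 replicates (5 for Fscn2), bars the mean and error bars the SD. Only genes called higher are shown, so that points lie above 0 follows from the choice. They run from Guca1b at 6.24 to 6.70 down to Vamp2 at 0.34 to 0.54. Not shown are the genes not called, 10 of the synapse (-0.38 to 0.22) and 12 of the cilium (-0.10 to 0.20).

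The carriers that bring lipid-modified proteins into the outer segment rose together. Of 9 genes measured for the BBSome and for lipidated cargo 8 rose, with a median of 1.28, and none fell. Unc119, which shields the lipid of transducin alpha on its way through the cilium, rose by 2.86 ± 0.14, from 2.68 over 2.85 to 3.02. Pde6d, the carrier of prenylated proteins such as the phosphodiesterase subunits, rose by 1.13 ± 0.11, and Arl3, the GTPase that unloads both carriers, by 1.28 ± 0.14 with replicates from 1.12 to 1.49. The BBSome is a coat that returns proteins from the cilium to the cell body. Its subunit Bbs5 rose by 2.15 ± 0.11, Bbs9 by 2.07 ± 0.18, Bbs2 by 1.29 ± 0.20 and Bbs4 by 1.00 ± 0.20. Replicates of Bbs5 and Bbs9 ran from 1.84 to 2.27 and those of Bbs2 and Bbs4 from 0.78 to 1.58. Each subunit was read by 1 probe, and the pairs were formed by these values, so the gap is no separate result.

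Intraflagellar transport, which runs in the cilia of most cells, differed less. Of its 13 genes measured 9 rose, between 0.20 and 0.78, and none fell. The count was between 6 and 8 with 1 replicate left out, and 6 without replicate 3. Ift74 rose by 0.78 ± 0.25 and Ift81 by 0.74 ± 0.12, which are partners in tubulin transport, and the motor subunit Kif3b by 0.59 ± 0.20. Ift88 had 0.44 ± 0.13, Ift122 0.36 ± 0.11 and Ift57 0.30 ± 0.13, all called. In the connecting cilium 4 of 11 genes rose and the others lay between -0.10 and 0.20. Rpgrip1, the anchor of the RPGR complex, whose promoter is shown above, rose by 2.78 ± 0.16 over 4 probes, from 2.57 to 2.97. Tmem67, a receptor-like protein of the transition zone, rose by 1.00 ± 0.13, and Ahi1 and Spata7, also of the transition zone, by 0.46 ± 0.18 and 0.45 ± 0.10. Within the cilium the differences thus ran from near 0 to 6.86-fold between genes measured in the same libraries.

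At the synaptic end 10 of 20 genes measured rose and none fell, with a median of 0.23. Cplx4, a complexin of ribbon synapses, rose by 3.34 ± 0.13 with replicates from 3.16 over 3.32 to 3.50, a 10.2-fold difference. Cacna1f, the pore of the calcium channel that opens release at photoreceptor terminals, ranged from 1.22 over 1.57 to 1.87. Stx3, the syntaxin of ribbon synapses, had 1.14 ± 0.30, and 1 replicate at 1.72 stood above the others. Unc13b, a vesicle priming protein, rose by 1.10 ± 0.19. Ctbp2, whose gene also encodes the ribbon protein RIBEYE, rose by 0.72 ± 0.12. Among genes that all synapses use, Syp, a protein of the vesicle membrane, rose by 0.64 ± 0.20 and the fusion protein Vamp2 by 0.44 ± 0.07. The highest replicate of Syp, 0.84, lay above the lowest of Ctbp2, 0.62. The genes of this list that were not called lay between -0.38 and 0.22. Among them were the complexin Cplx3 with 0.08 and the active zone genes Bsn with 0.18 and Erc2 with 0.05.

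The lipid genes rose in part and fell in part. Outer segment membranes are rich in docosahexaenoic acid and in even longer chains that Elovl4 makes. Elovl4 rose by 2.71 ± 0.18, from 2.47 over 2.68 to 2.94, a 6.56-fold difference, and Hacd3, a dehydratase of the same elongation cycle, by 0.41 ± 0.15. Of 10 genes of fatty acid elongation and desaturation 2 rose and 4 fell, with 2 falls left without replicates 1 and 2 together or 1 and 5 together. Elovl1 had -0.58 ± 0.14, Elovl5 -0.43 ± 0.22 and Fads1, the delta-5 desaturase, -0.42 ± 0.28. Among 18 genes of phospholipid and inositol lipid synthesis 6 rose and 1 fell. Cds1, which makes the precursor of phosphatidylinositol, rose by 2.51 ± 0.09, from 2.34 over 2.53 to 2.58, the smallest SD among the 25 largest rises. Agpat3, an acyltransferase that places docosahexaenoic acid into phospholipids, rose by 2.02 ± 0.21 and Adipor1, a receptor needed for uptake of that fatty acid in the retina, by 1.28 ± 0.15. Lpcat1, an acyltransferase whose loss causes photoreceptor degeneration in mice, rose by 1.27 ± 0.28, and Acsl6, an acyl-CoA synthetase with a preference for docosahexaenoic acid, by 0.61 ± 0.41. Pcyt1a, a rate-limiting enzyme of phosphatidylcholine synthesis, had -0.32 ± 0.13.

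Glycolysis rose at several steps. Photoreceptors take up much glucose and turn most of it into lactate. Of 17 genes of glycolysis and lactate transport 9 rose and 1 fell, with a median of 0.34. The first step differed most, Hk2 by 1.78 ± 0.27 with replicates from 1.50 to 2.16 and Hk1 by 1.39 ± 0.10 with replicates from 1.31 to 1.58. Hk2 is the hexokinase of photoreceptors, and Hk1 is the form found in most neurons. Pgam1 followed with 0.74 ± 0.19, Ldha with 0.71 ± 0.14, Pkm with 0.71 ± 0.14, and Eno2, Pfkp and Gapdh with 0.42 ± 0.11, 0.42 ± 0.12 and 0.34 ± 0.13. Pfkm, the muscle form of phosphofructokinase, fell, at -0.51 ± 0.16, as did most genes of muscle described below. The adenylate kinase Ak1, which is abundant in muscle, had -0.45 ± 0.20. Of 5 genes of ion pumps and transporters 1 rose and 1 fell. Atp1b2, a sodium pump subunit that holds retinoschisin at the photoreceptor surface, rose by 1.23 ± 0.17. Atp1b3, another beta subunit of the pump, had -0.29 ± 0.20 and lost its call without replicate 1, 2, 3 or 5.

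**Figure D3:**
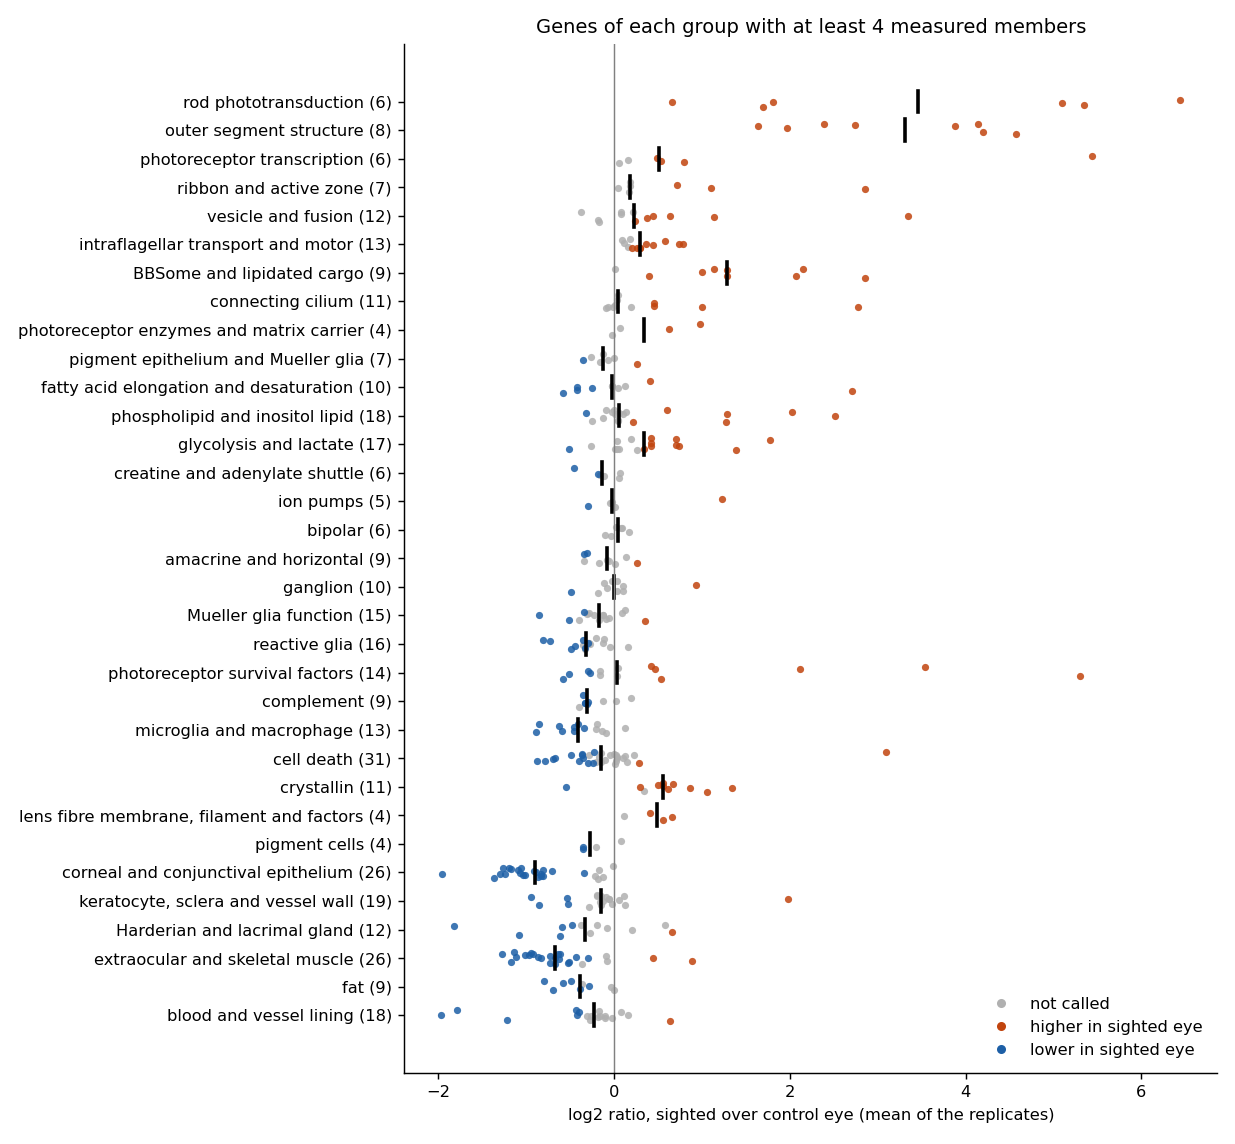
Log2 ratio of sighted over control eye of each measured gene, by group, for groups with at least 4 measured genes (number in brackets). Colours give the limma call, and the black bar is the median of the group, which runs from 3.45 for rod phototransduction to -0.90 for corneal and conjunctival epithelium.

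Several of the 25 largest rises, which lay between 2.33 and 6.45, belong to none of these groups. Ei24, an endoplasmic reticulum protein first described as induced by p53, rose by 3.09 ± 0.15, from 2.88 over 3.12 to 3.27. Fam161a, a microtubule protein of the connecting cilium, rose by 2.42 ± 0.27 and Nt5e, an ectonucleotidase that is also a surface marker of rod precursors, by 2.46 ± 0.19. Elfn1, an adhesion protein with which rods place the receptors of bipolar cells, rose by 2.33 ± 0.16 with replicates from 2.10 to 2.53. Faim, an inhibitor of death receptor signals, had 2.47 ± 0.33, and the arginase gene Arg2 2.38 ± 0.36. Ccdc126 with 2.75 ± 0.17, the progesterone receptor gene Pgr with 2.60 ± 0.19 and Susd3 with 2.59 ± 0.39 were also among them. Just below them, and chosen after their values were seen, stood Klhl18 with 2.33 ± 0.15, Impdh1 with 2.30 ± 0.15 and Kpna2 with 2.10 ± 0.19. Impdh1 makes guanine nucleotides and is mutated in a dominant form of retinitis pigmentosa. Klhl18 is a ubiquitin ligase adaptor that acts on Unc119 in rods. Marchf1, a ubiquitin ligase, split the replicates. It lay at 3.04, 2.39, 3.05 and 3.08 in replicates 1, 2, 5 and 6 and at 0.69 and 1.00 in replicates 3 and 4, which gave 2.21 ± 1.09.

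Among photoreceptor transcription factors 4 of 6 measured rose and none fell, but Crx, Nrl and Nr2e3 were not on the array. Esrrb, an orphan nuclear receptor that supports rod survival, rose by 5.44 ± 0.46, from 4.87 over 5.51 to 6.08. The others were far smaller. Mef2c rose by 0.79 ± 0.27, Mef2d by 0.53 ± 0.16 and Thrb, the thyroid hormone receptor that sets cone opsin identity, by 0.48 ± 0.15. Mef2d had 1.02 with the sighted RNA in Cy5 and 0.04 in Cy3. On the Cy3 arrays alone Mef2d lost its call, also after centring. Of 13 cone genes only Gnb3 and Gngt2, transducin subunits of cones, were measured. They had 0.33 ± 0.26 and 0.26 ± 0.19 and passed, but Gnb3 lost its call without replicate 1, 3, 5 or 6 and Gngt2 without replicate 1, 2, 3, 4 or 5, with values of 0.28 to 0.40 and 0.21 to 0.32 with 1 replicate left out. Gngt2 was not called in limma with every array on its own and a dye term (adjusted p = 0.0590) or with every array centred on its median (adjusted p = 0.0548). For neither was a difference from brain called (adjusted p = 0.0812 and 0.694).

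Genes of the inner retina differed little in either direction. Of 6 bipolar cell genes limma called 0, with 1 at an unadjusted p under 0.05, and their ratios lay between -0.11 and 0.17. Of 10 ganglion cell genes 1 rose and 1 fell. Rbpms, an RNA-binding protein that marks ganglion cells, had -0.48 ± 0.25, and Jam2, an adhesion protein of ganglion cell subtypes that other cells also carry, had 0.93 ± 0.13 with replicates from 0.79 to 1.06. Of 9 amacrine and horizontal cell genes 1 rose and 2 fell, all by at most 0.34 in size. No rise was left without replicate 1, 2, 3 or 5, no fall without replicate 4 or 5, and 1 fall without replicate 1, 2 or 6. Of 4 visual cycle genes of photoreceptors 2 rose and the others lay between -0.02 and 0.07. Rdh11, a retinol dehydrogenase, rose by 0.98 ± 0.16 and Dhrs3, a retinal reductase, by 0.62 ± 0.12. Of 7 visual cycle genes of pigment epithelium and Mueller glia 1 rose and 1 fell, the rise passing only with all replicates or without replicate 2 and the fall being lost without replicate 4 or 5, and the values of all 7 lay between -0.35 and 0.26. Of 4 genes of pigment cells 2 fell, both at -0.35, and 1 did so without replicate 3 or 4.

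Genes known for the survival of photoreceptors held 3 large rises. Nxnl2, a relative of rod-derived cone viability factor, had 5.30 ± 0.10, from 5.21 over 5.26 to 5.49. Vtn, an extracellular ligand of integrins, ranged from 3.32 over 3.46 to 3.94. Tub, whose loss causes retinal and cochlear degeneration, rose by 2.11 ± 0.32, from 1.53 to 2.44. The phagocytosis ligand Mfge8 and its receptor subunit Itgav, which serve the uptake of shed discs, rose by 0.47 ± 0.13 and 0.53 ± 0.31. Mfge8 had 0.89 with the sighted RNA in Cy5 and 0.05 in Cy3. On the Cy3 arrays alone Mfge8 lost its call, also after centring. Genes of the uptake of discs did not move together. The integrin subunit Itgb5 fell, at -0.27 ± 0.20, and Gas6 and Pros1 were not called, at 0.04 and -0.16. Grn, the gene of the lysosomal protein progranulin, fell, at -0.52 ± 0.13. In all 6 of 14 genes of this group rose and 4 fell, and without replicate 3 only 2 fell.

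Of 16 reactive glia genes measured, 7 fell, 9 were not called and 0 rose at an adjusted p under 0.05 in limma. Counting both directions, 10 had an unadjusted p under 0.05, and the median of the group was -0.32. Without replicate 2, 4 or 5 the count of falls was 5, and without replicates 1 and 5 together it was 4. Genes of surface epithelium, with a median of -0.90, and of muscle, with -0.68, were lower in the same eyes, and their part in these falls was not tested. Il6st, the shared receptor of the ciliary neurotrophic factor family, had -0.81 ± 0.38, with replicates from -1.46 over -0.65 to -0.48. Stat3, which that receptor activates, had -0.49 ± 0.14, and Cebpd, a factor induced by Stat3, -0.73 ± 0.26 (n = 5). Cebpd had -0.00 with the sighted RNA in Cy5 and -1.05 in Cy3, and lost its call with every array on its own, at -0.53 in limma with a dye term (adjusted p = 0.0987) and -0.55 with the pair also as a replicate block (adjusted p = 0.0647). Gfap, the filament that reactive Mueller cells build, ranged from -0.71 over -0.41 to -0.18, a mean of -0.45, and Ednrb, the endothelin receptor B, had -0.35 ± 0.14. Of 15 genes of Mueller cell function 3 fell and 1 rose. Hes1, the effector of Notch signals, had -0.85 ± 0.28 and Apoe, a lipid carrier made by glia, -0.51 ± 0.19, while Car2, a carbonic anhydrase, rose by 0.35 ± 0.11.

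Microglia and macrophage genes fell in 8 of 13 and rose in 0, with a median of -0.41. Ctss, a lysosomal cathepsin of phagocytes, had -0.89 ± 0.15, from -1.12 over -0.90 to -0.71. Lgals3, a galectin of activated phagocytes that surface epithelia also make, had -0.85 ± 0.13. Laptm5 had -0.63 ± 0.14 and Aif1, the microglial marker IBA1, -0.60 ± 0.20. Every replicate of these genes lay below 0. Without replicates 1 and 5 together 4 genes of the group fell. Of 9 complement genes 5 fell, with values between -0.35 and -0.29, among them Cfi with -0.31 ± 0.14. This count was 2 without replicate 1, 3 without replicate 2, 1 without replicate 4 and 2 without replicate 5, and the 5 differences were small. Over both groups 13 of 22 genes fell, and 8 without replicate 4.

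Cell death genes fell more often than they rose. Of 31 genes of apoptosis, autophagy and the calpain system 12 fell, or 38.7% against 11% of all genes, and 2 rose. Without replicate 1 the count was 8, and without replicates 1 and 5 together 6. Both calpains measured fell, Capn1 at -0.67 ± 0.15 and Capn2 at -0.48 ± 0.17, and so did Cast, their inhibitor calpastatin, at -0.78 ± 0.23. Capn1 had -0.12 with the sighted RNA in Cy5 and -1.22 in Cy3. It lost its call on the Cy5 arrays alone, also after centring. Tnfrsf1a, a receptor of tumour necrosis factor, had -0.70 ± 0.09, and Casp6 -0.40 ± 0.13. Casp1, the inflammatory caspase, had -0.88 ± 0.59, where replicate 6 at -2.02 stood apart from the others at -0.94 to -0.44. The risers were Ei24, given above, and Parp1, a DNA repair enzyme that is overactive in degenerating rods, with 0.28 ± 0.08. Several of these falling genes, such as Capn1 and Cast, are also strongly expressed in surface epithelia, whose group had a median of -0.90 here, and the part of those tissues in the result was not tested.

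Lens genes were higher in sighted eyes, though not equally in all replicates. Of 11 crystallin genes 9 rose and 1 fell, and of 4 other lens genes 3 rose. On centred arrays of 1 dye, 8 crystallins rose in Cy5 and 4 in Cy3. Of the called crystallins 9 were also measured in brain, and 5 of these differed from it. The crystallin median was 0.04 in replicate 1 and 0.14 in replicate 5 and between 0.75 and 0.92 in the other 4. Crybb2 had 0.81 in both replicates 1 and 5 and 1.50 to 1.72 elsewhere. Crygb lay at 0.13 and 0.14 in those replicates and at 0.85 to 1.52 in the others. Leaving out replicate 2, 3, 4 or 6 lowered the count of risen crystallins to 5, and leaving out 1 or 5 kept it at 9. Lim2, a membrane protein of lens fibres, with 0.56 ± 0.30, Bfsp2, a filament protein of the same fibres, with 0.41 ± 0.26, and Fabp5 with 0.65 ± 0.44 shared the low values in replicates 1 and 5, where the median of these lens genes was 0.05 and 0.16. Crybb3 went against its family, at -0.55 ± 0.17 with all replicates below 0. Crystallin genes are close relatives, and a cDNA probe may bind several of them. Rod genes did not share the pattern. The outer segment genes had medians of 4.08 and 3.94 in replicates 1 and 5, against 3.57 to 3.93 in the others. How much lens entered each sample was not recorded in the labels, and its part in the lens result was not tested.

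**Figure D4:**
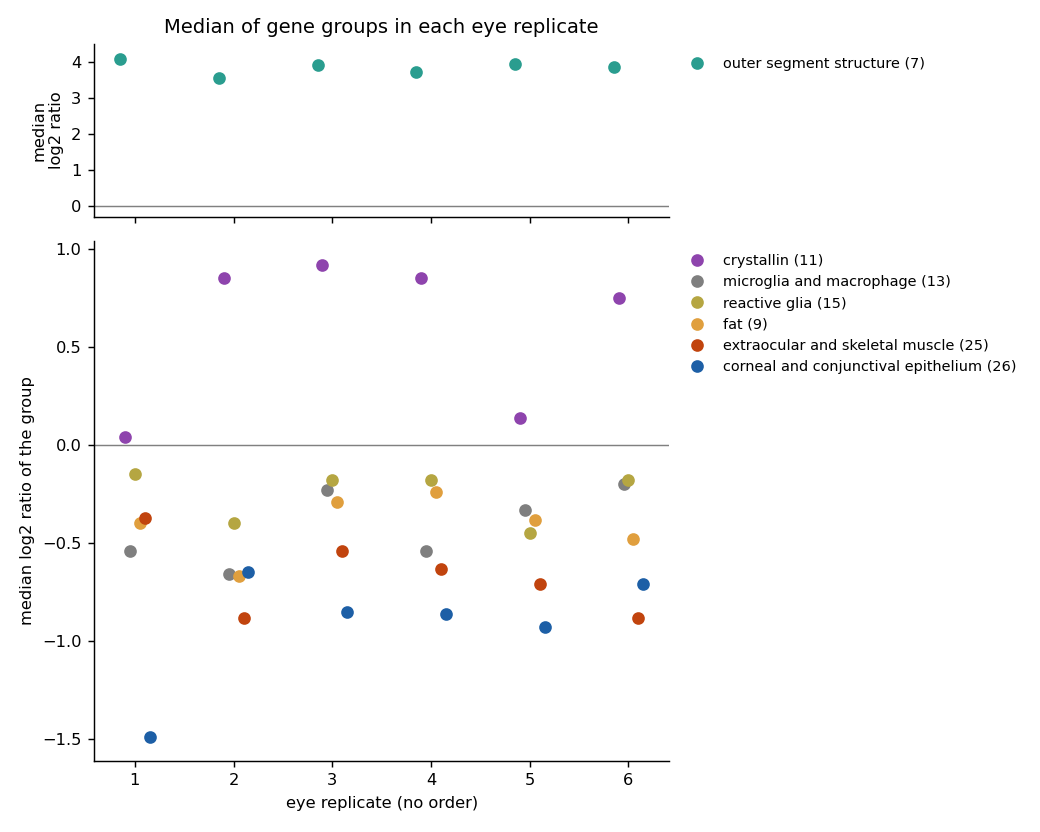
Median log2 ratio of gene groups in each of the 6 eye replicates, with the number of genes measured in all replicates in brackets. The outer segment group (upper panel) stays between 3.57 and 4.08, whereas crystallins drop to 0.04 and 0.14 in replicates 1 and 5 and the surface epithelium reaches -1.49 in replicate 1.

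Genes of the ocular surface were lower in sighted eyes. Of 26 genes of corneal and conjunctival epithelium 21 fell and 0 rose in limma, with a median of -0.90. Counting both directions, 22 had an unadjusted p under 0.05. Krt12, the keratin specific to the cornea, had -1.36 ± 0.59, Aldh3a1, an enzyme that the cornea holds in bulk, -1.30 ± 0.45 and Klf4, a factor of the corneal surface, -1.27 ± 0.39. Gsta4 with -1.24 ± 0.38, Krt5 with -1.19 ± 0.42 and Slurp1, secreted by the corneal surface, with -1.17 ± 0.43 fell likewise. In replicate 1 the group had a median of -1.49 and in the other replicates of -0.93 to -0.65. Krt12 itself had -2.48 there. Of 19 genes of keratocytes, sclera and vessel wall 4 fell and most collagens were not called. Aspn had -0.94 ± 0.67 and Myh11, smooth muscle myosin, -0.53 ± 0.31. Fbln1, fibulin 1, rose by 1.98 ± 0.17, from 1.77 over 1.96 to 2.23, and is the only gene of its group that rose.

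Genes of orbital tissue fell as well. Of 26 genes of extraocular and skeletal muscle 21 fell, with a median of -0.68, and 2 rose. Ryr1, the calcium release channel, ranged from -2.20 over -1.20 to -0.52, and Atp2a1, the calcium pump of fast fibres, had -1.11 ± 0.34. Ckm had -1.13 ± 0.28 and Actn3 -1.18 ± 0.27. Here replicate 1 was closest to 0, with a median of -0.37, and replicates 2 and 6 farthest, at -0.88 each. Surface and muscle genes therefore did not rank the replicates alike. The risers were Actn2, an actinin of muscle that neurons also make, with 0.89 ± 0.14, and Pvalb, a calcium buffer of muscle and neurons, with 0.45 ± 0.12. Of 9 fat genes 6 fell, among them Car3 with -0.80 ± 0.26, Fabp4 with -0.70 ± 0.22 and Cidec with -0.58 ± 0.23. Of 12 genes of Harderian and lacrimal gland 5 fell and 1, Fabp5, rose, with 2 rising without replicate 2. Ltf, lactoferrin, ranged from -2.24 over -1.85 to -1.21, Aqp5, the water channel of gland cells and cornea, had -1.08 ± 0.47 and the antibody carrier Pigr -0.61 ± 0.12. Scd2, a fatty acid desaturase, had -0.47 ± 0.18 and lost its call with every array on its own, at -0.33 in limma with a dye term (adjusted p = 0.0768) and with the pair also as a replicate block (adjusted p = 0.0586). With values above 15 kept it had -0.94 and was not called either (adjusted p = 0.140).

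Many of the deepest falls had the pattern of globin over the replicates. Hba-a1, an alpha globin, had -3.29 and -3.27 in replicates 1 and 2 and -1.56 to -0.91 in the other 4. Within a root mean square distance of 0.5 of it over the 6 replicates lay 8 named genes and 10 probes without a symbol. They were Hba-x, an embryonic alpha-like globin, and Krt16, H3f3a, Ucma, Cdca8, Tap1, C1qtnf6 and Fbxo32, which have no shared role in blood. Ucma had -2.01 ± 1.03 and Tap1 -1.97 ± 1.01, against -1.96 ± 1.05 for Hba-a1. These 8 genes are 8 of the 25 largest falls, which lay between -2.67 and -1.17. Other red cell genes were milder. Alas2, the first enzyme of haem synthesis in red cells, had -1.22 ± 0.47 with its lowest values also in replicates 1 and 2, and Slc4a1, the red cell anion exchanger, -0.43 ± 0.13. Of the 18 genes of blood and vessel lining 6 fell, 11 were not called, between -0.31 and 0.16, and 1 rose. The riser was Kdr, a receptor for vascular endothelial growth factor, with 0.64 ± 0.49 (n = 5). It had 1.49 in replicate 1 and lost its call in limma with every array centred (adjusted p = 0.0514), with every array on its own and a dye term (adjusted p = 0.0660), with values above 15 kept (adjusted p = 0.0533) and without replicate 3, 4, 5 or 6, with values of 0.42 to 0.71 with 1 replicate left out. Without Krt16 the surface epithelium still held 20 falls among 25 genes. Whether these probes took up globin label was not tested, and the genes are reported under the names of the platform annotation.

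**Figure D5:**
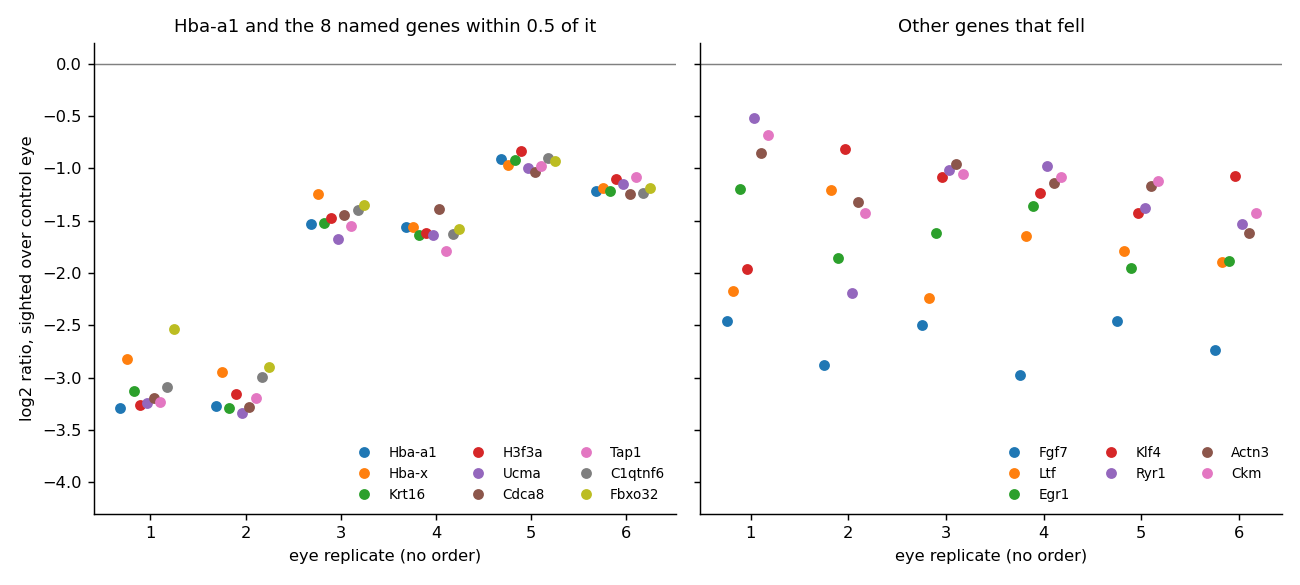
Log2 ratio of sighted over control eye in each of the 6 replicates for Hba-a1 and the 8 named genes within a root mean square distance of 0.5 of it (left) and for other genes that fell (right). The genes on the left lie between -3.34 and -2.54 in replicates 1 and 2 and between -1.79 and -0.83 in the others, while Fgf7 on the right stays between -2.97 and -2.45 in all 6.

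Outside that pattern, Fgf7, a growth factor made by stroma for epithelia, fell most of all named genes, at -2.67 ± 0.23 with replicates from -2.97 over -2.62 to -2.45. This 6.35-fold difference was steady over the replicates, unlike the surface epithelium. Egr1, an immediate early factor, had -1.65 ± 0.31 and Kitl, the ligand of Kit, -1.20 ± 0.48. Cyp2f2, a cytochrome of airway and gland epithelium, had -1.20 ± 0.22, and Cstdc6, a stefin, -1.18 ± 0.58. Nup155, a subunit of the nuclear pore, had -1.38 ± 0.75, with -2.26 and -2.39 in replicates 1 and 2 and -1.13 to -0.66 in the others. It lay beyond the distance of 0.5 from Hba-a1, but its lowest values were in the same replicates. Whether Nup155 belongs to the globin pattern was not tested.

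Genes near Pde6b on chromosome 5 were inspected because a line made by crossing can carry a stretch of donor chromosome. Of the 10 nearest genes with a value on each side in gene order, 20 in all, 3 rose and 3 fell, a share close to the 26.8% of all genes. Glmn, 13 genes before Pde6b, rose by 2.00 ± 0.15, from 1.78 over 2.03 to 2.16, and had -0.00 in brain. Zfp644, 22 genes before, rose by 1.05 ± 0.21 (n = 5) and Mtf2, 6 genes before, by 0.40 ± 0.24. Rpl5, Tgfbr3 and Pcgf3 fell by 0.23, 0.22 and 0.33, and each lost its call without replicate 1, 4, 5 or 6, the values with 1 replicate left out lying between -0.40 and -0.19. Of these 6 genes, Pcgf3 alone lies after Pde6b. A stretch of donor chromosome cannot be told apart from the retina in eye alone.

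Named genes with several probes were checked for agreement. Beside Rgs9, a probe above 2 stood against others below 0.5 in size in Gas7 with 2.69 and -0.43, in 1810009A15Rik with 2.57, 0.30 and 0.03, in Creld1 with 2.34 and 0.18, in Ppp2r2b with 2.20 and 0.15 and in Suv39h2 with 2.01 and 0.40. For these 6 genes the mean over probes is not a measure of the gene.

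The same comparison was made in brain on 12 arrays with 6 replicates, against a control pool from other males than the eye pool. Of 15499 genes measured in both organs, 2851 had a ratio in eye that differed from that in brain, or 18.4%, 1745 of them higher in eye and 1106 lower. All 25 of the 25 largest rises differed from brain, where the same genes lay between -0.46 and 0.43. So did all 25 of the 25 largest falls, at -0.27 to 0.23 in brain. Both sets were chosen by their size in eye, and in brain alone 1 of 16112 genes was called. These counts therefore follow from the choice and are no independent support. The 14 genes of phototransduction and outer segment, all called in eye, differed from brain too, Rgs9 by the mean of its probes. This count and the genes named next were likewise taken from genes called in eye. They are no independent support either. Ei24 had 0.01 in brain and 3.09 in eye, Cds1 0.01 and 2.51, Hk1 0.02 and 1.39 and Adipor1 -0.03 and 1.28. Of the 7 reactive glia genes that fell in eye 5 differed from brain, where Gfap had -0.08 and Stat3 -0.10, with adjusted p of 0.0390 and 0.00995 for the difference. Of the 5 complement genes 1 differed from brain. Over all genes called higher in eye and measured in brain, 1640 of 2477 differed from brain, and of those called lower 1027 of 1692.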

How the data were processed

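Eye RNA of sighted C3H males was hybridised against 1 control pool on 12 two-colour arrays, 6 with the sighted RNA in Cy5 and 6 in Cy3, after reverse transcription and indirect dye labelling of 20 µg of total RNA, per the labels' protocols. The deposited values are log2 ratios within an array, read as Cy5 over Cy3. How the authors scanned, background-corrected and normalized the arrays is not given in the sources used here. They were not all centred, since their medians ran from -0.061 to 0.535. Missing values made up 1.62 to 5.10% of an array. The 1436 values above 15 all equalled the array's top value, 16.61, and were set missing.

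The sign was turned on the 6 arrays that had the sighted RNA in Cy3. Arrays 1 and 2, 3 and 4 and so on were averaged for each probe to 6 replicates, and probes of a gene were then averaged. Of 20794 probes 12771 carried 1 symbol, 0 several and 8023 none, per the platform annotation, and those without a symbol were tested as single probes. A gene could miss 1 replicate. Symbols were matched to RefSeq (GRCm38.p6), which changed 0 of them. The mean was tested against 0, two-sided, with limma 3.58.1 in R 4.3.3 and eBayes, with Benjamini-Hochberg adjustment over all 15874 genes. Eye and brain were compared per gene with each organ's moderated variance. On 1 brain array both channels are labelled Cy5, and its sighted RNA was taken to be in Cy5.

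On simulated data of 15874 genes the eye fit recovered 56% of changes of 0.5, 92% of 1, 96% of 2 and 100% of 4, and called 0.096% of unchanged genes. The simulated noise was drawn separately for each gene and array. It held no shifts between arrays, no patterns shared by genes and no error of the control pool, so these rates hold only for such noise. The number of arrays limits the precision, and no depth exists for array data.

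The gene groups and the genes described were chosen with earlier results of these data known. Genes named were the 25 largest changes each way with 1 sign in 6 replicates, up to 6 called members of a group by size, neighbours of Pde6b, genes with discordant probes and genes with a wide dye gap. Fewer were given than this rule allows. Alternatives were single arrays with a dye term, the same with a random effect for each pair, centred and scaled arrays, values above 15 kept, 6 replicates required, 1 dye only, single probes, the median over probes, robust moderation, removal of the 20% most variable genes and each replicate left out. Leaving out replicates 1 and 2 or 1 and 5 together, and centring within 1 dye, were chosen after seeing the data.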

Additional observations from a re-analysis of the deposited data

Results flagged for a closer look

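Among 6 replicates, 1 stood far from the other 5 for 14 of 198 values tested, and chance marks about 1 in 20 such groups. The value apart was 1.72 for Stx3, 0.95 for Ctbp2, 2.34 for Cds1 and 1.58 for Hk1 among genes that rose. For Kdr, measured in 5 replicates, it was 1.49. Among genes that fell it was -0.97 for Fads1, -0.97 for Rbpms, -0.77 for Grn, -2.02 for Casp1 and -0.52 for Tnfrsf1a. The corneal genes Krt12 and Aldh3a1 had -2.48 and -2.15, both in replicate 1, in which the surface epithelium as a group had its outlying median of -1.49. The phospholipid and inositol lipid group had 1 replicate median apart, at -0.05.

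The ratio of eye differed from that of brain for 2851 genes. It also did so for 25 of the 25 largest rises and 25 of the 25 largest falls in eye. These rises and falls were chosen by their size in eye, so their counts are no independent support.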

How the results depend on the processing

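The counts depended mostly on the dye and on the number of replicates. With the sighted RNA in Cy5 only, 6072 genes were higher and 508 lower, and with Cy3 only 553 and 3394. After centring, the same arrays gave 2176 and 1834 in Cy5 and 1951 and 2028 in Cy3. Centring all arrays gave 2537 higher and 2410 lower. Leaving out 1 replicate gave 1848 to 2717 higher and 1316 to 1596 lower. Without replicates 1 and 5, which had low crystallin values, 1304 were higher and 886 lower, and without replicates 1 and 2, which had the lowest globin values, 1103 were lower. Fewer replicates alone lower such counts, and the cause was not tested. With every array on its own and the pair as a replicate block, 2747 were higher and 1974 lower, and keeping values above 15 gave 2415 and 1661.

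The eye and brain difference was called for 2174 genes with the replicate number as a replicate block, against 2851. The numbers do not pair the organs, since the deviations of same-numbered replicates correlated between -0.0175 and 0.0178. Without brain replicate 2 the count was 2581 and with a shared variance 2723.

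Of 164 called genes followed through the settings, 106 kept their call in every setting that tested them. Only 133 were tested with the 20% most variable genes removed and 160 with 6 replicates required. On centred arrays of 1 dye, 153 of the 164 kept their call in Cy5 and 150 in Cy3. Signs turned on arrays of a single dye in 4 of the 164. These values were -0.032 in Gnb3 and -0.039 in Gngt2 with Cy3 and 0.046 in Rpl5 and 0.065 in Tgfbr3 with Cy5. Other called genes also turned sign between dyes, among them Pax6 and Tulp3, given above, and Fads2 with 0.20 in Cy5 and -0.70 in Cy3. Values are ratios without signal, so which probes were near background could not be read.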
